A study of Homo sapiens with 2 samples.

Results

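The 45 genes described here encode the machinery that copies DNA in S phase. They were chosen by function, with earlier results of these data known, as a fixed list of symbols matched to the authors' gene table. All 45 were found, each under a single row, among 36027 genes in all. They were read in single-cell RNA sequencing of SK-N-BE(2)-C, an established human neuroblastoma line, in a derivative with an HRASV12 construct that doxycycline switches on (HRASV12 is a mutant HRAS held in its active state). The HRASV12 induced library was made after 13 days of doxycycline at 100 ng/ml, and the uninduced control library from the same line left untreated for 13 days. Both libraries carry the inducible construct, and the control did not receive doxycycline, so an effect of the drug itself and one of HRASV12 cannot be told apart.

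Before S phase, the origin recognition complex, CDC6 and CDT1 load the ring of MCM2 to MCM7 onto DNA, a step called licensing. CDC45 and the GINS complex then turn the ring into a running helicase, primase and the polymerases copy the strands, and the PCNA clamp, set in place by replication factor C, holds the polymerases on DNA. E2F transcription factors, which the RB protein restrains in resting cells, drive most of these genes around the start of S phase, so that their RNA is high in dividing cells and low in cells that have left the cycle.

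The induced library held 666 cells and 80359736 counts (molecules counted by their tags), the control library 956 cells and 95350640 counts, with medians of 111582 and 85821 counts per cell and no cell barcode in common. With 1 library per group there is no replicate error and no test, and every difference describes these libraries. Intervals are 95% intervals for counting error only. They leave out the spread between cells and between cultures. Of the markers of adrenergic neuroblastoma reported here, 10 reached 5 CPM (counts of a gene per 1000000 counts of its library) in each library, while TH (1.14 against 3.62 CPM in induced and control cells) did not. All 4 immune markers in the table were under 5 CPM, and endothelial and fibroblast markers summed to 74.2 and 84.5 CPM in induced against 105 and 40.6 CPM in control cells. EGFL7 alone gave 53.4 against 96.4 CPM of the endothelial sum and LUM 64.5 against 18.5 CPM of the fibroblast sum. ESAM (10.7 against 3.22 CPM), CDH5 (2.63 against 0.965 CPM), KDR (1.92 against 0.157 CPM) and TEK (1.07 against 0.115 CPM) were higher in induced cells. PECAM1 (3.97 against 3.07 CPM) and VWF (0.324 against 0.294 CPM) differed less, and CLDN5 (0.212 against 0.430 CPM) was lower. Of the fibroblast markers, PDGFRB (6.46 against 16.3 CPM) and COL1A2 (0.697 against 0.787 CPM) were lower in induced cells. COL1A1 (5.65 against 2.22 CPM), COL3A1 (4.02 against 1.66 CPM) and DCN (3.21 against 1.14 CPM) were higher. The part of these markers in the results was not tested. Cells under the 5th percentile of control cells in mitochondrial percent, or in the nuclear RNA MALAT1, are named low cells here. The limits were kept by 406 induced and 871 control cells, and values without low cells are given beside several of the results that they move. In bulk sums, fewer cells of a kind and less RNA per cell cannot be told apart, which is why sums over a library are set beside values per cell further on.

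The promoters of 4 licensing genes are shown because E2F factors bind such promoters through short sites. The letters searched were TTTCCCGC, TTTGGCGC, TTTGCCGC and TTTCGCGC, on both strands, in RefSeq promoters of build GRCh38.p14 that run from 250 bases before to 50 bases after a gene's start. Of 37 members with a promoter in that table, 20 held at least 1 match, against 3.99% of all 27305 genes in it. By role, matches were found in 6 of 8 licensing genes, 3 of 5 helicase activation genes, 2 of 5 clamp and loader genes and 1 of 4 genes of nucleotide supply. A match of letters is a description and no proof of a bound site. The 200 bases before the start of MCM6 (chr2:135876444-135876643, minus strand), MCM3 (chr6:52284743-52284942, minus strand), MCM7 (chr7:100101398-100101597, minus strand) and CDT1 (chr16:88803589-88803788, plus strand) follow, 5′ to 3′ along the gene, with each match in capitals. They were taken from the licensing genes whose match lies wholly within these bases.
MCM6: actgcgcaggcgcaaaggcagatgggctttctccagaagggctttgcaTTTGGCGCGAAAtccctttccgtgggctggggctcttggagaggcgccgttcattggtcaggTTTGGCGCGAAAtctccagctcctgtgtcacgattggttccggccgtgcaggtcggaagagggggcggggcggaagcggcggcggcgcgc
MCM3: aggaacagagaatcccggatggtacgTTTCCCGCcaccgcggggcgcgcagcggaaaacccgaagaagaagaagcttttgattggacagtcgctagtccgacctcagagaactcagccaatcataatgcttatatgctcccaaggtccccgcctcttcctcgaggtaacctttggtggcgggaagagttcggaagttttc
MCM7: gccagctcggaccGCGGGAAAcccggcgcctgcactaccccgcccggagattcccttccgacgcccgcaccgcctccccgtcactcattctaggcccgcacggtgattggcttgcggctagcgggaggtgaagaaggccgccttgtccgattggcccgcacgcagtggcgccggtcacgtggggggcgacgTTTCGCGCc
CDT1: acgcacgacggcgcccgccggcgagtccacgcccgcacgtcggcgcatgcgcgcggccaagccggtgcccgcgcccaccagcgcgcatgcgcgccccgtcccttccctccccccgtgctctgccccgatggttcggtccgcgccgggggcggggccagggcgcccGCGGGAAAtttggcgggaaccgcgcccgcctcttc
MCM6 held 4 matches as 2 copies of the 12 letters TTTGGCGCGAAA, in each of which a match on one strand overlaps a match on the other. The copies began 152 and 90 bases before the start. Within the 200 bases shown, MCM7 held 1 match on each strand, MCM3 1 and CDT1 1. Over the longer stretch searched, and by the promoter with the most matches where a gene had several, the number for MCM3 was 2.

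Every one of the 45 genes was lower in the induced than in the control library. Their summed level was 1597 CPM in induced cells against 2881 CPM in control cells, which is a ratio of 0.554 (exact conditional interval 0.551 to 0.558, from 128341 and 274732 counts). On the log2 scale of CPM plus a pseudocount of 1 CPM, the ratios ran from -1.33 to -0.36 with a median of -0.86, and 38 of 45 genes were at least 1.5-fold lower and 0 at least 1.5-fold higher. Without low cells the median was -0.71, the log2 ratio of the summed level -0.74 in place of -0.85, and 34 genes were at least 1.5-fold lower. Over the 10797 genes with a mean of at least 5 CPM, 7.45% were at least 1.5-fold lower and 9.68% at least 1.5-fold higher, and the median was -0.05. All 45 members are in these counts, whatever their level, and 43 of them reach that mean. HELLS and RPA2 stood at the ends of the order. HELLS, a chromatin remodeller that works with DNA methylation, stood at 56.2 CPM in induced and 143 CPM in control cells. RPA2, a subunit of the protein that coats single-stranded DNA, stood at 32.2 against 41.7 CPM.

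**Figure D1:**
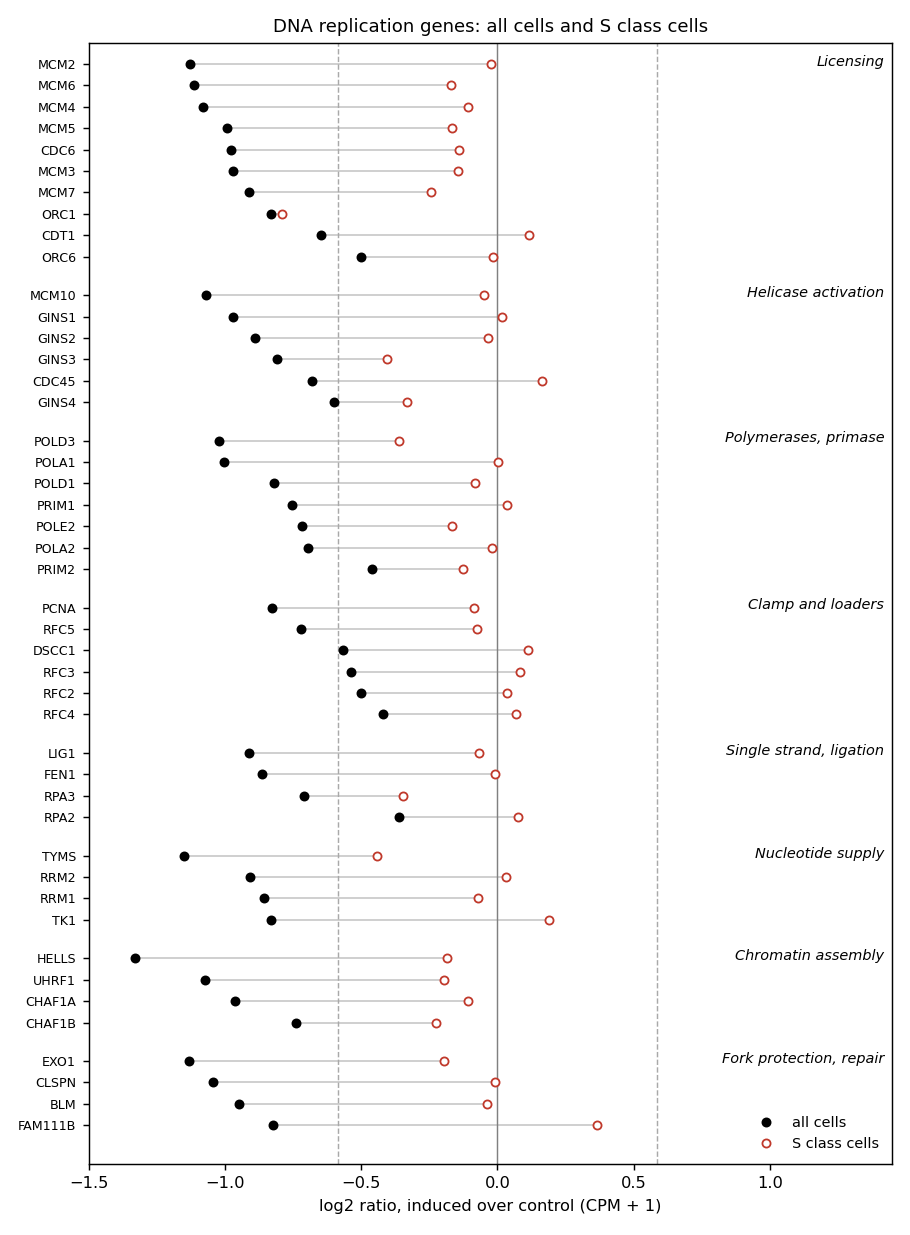
Log2 ratio of induced over control (CPM plus 1) for each of the 45 genes, grouped by role, over all cells (filled) and over cells of the S class at equal depth (open, red). Dashed lines mark 1.5-fold; over all cells every gene lies left of 0, from -1.33 to -0.36, and in the S class the median is -0.07.

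Licensing genes were nearly all past the threshold. Of 10 genes, 9 passed 1.5-fold lower and the median log2 ratio was -0.97. Their summed level was 439 CPM in induced and 822 CPM in control cells. MCM3, a ring subunit, stood at 108 against 213 CPM (ratio 0.509, 0.496 to 0.522), and MCM7, another subunit, at 108 against 204 CPM (0.530, 0.516 to 0.543). MCM6 stood at 17.6 against 39.3 CPM (0.449, 0.422 to 0.477). The loaders were less alike. CDC6, which is needed to load the ring, stood at 22.8 against 45.9 CPM, CDT1, its partner in loading, at 29.6 against 47.0 CPM, and ORC6, the smallest subunit of the origin recognition complex, was the least low of the group, at 70.8 against 101 CPM (0.704, 0.681 to 0.728). MCM4 and MCM5, the remaining ring subunits, had log2 ratios of -1.08 and -0.99. MCM2 had the lowest log2 ratio of the group, -1.13, from 137 against 469 counts, and ORC1 rested on 260 against 623 counts. Reads of MCM2 may be hard to assign, since its exons overlap TPRA1 on the opposite strand in GENCODE 29.

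The helicase activators were all at least 1.5-fold lower, 6 of 6, with a median of -0.85. MCM10, which helps to start the helicase, was the lowest at 19.1 CPM in induced and 41.1 CPM in control cells. GINS2, a subunit of the GINS complex, stood at 82.0 against 153 CPM, and GINS4, another subunit, was the least low at 6.43 against 10.3 CPM. GINS1 and GINS3, the remaining GINS subunits, had log2 ratios of -0.97 and -0.81. CDC45, the partner of GINS in the helicase, stood at 23.0 against 37.5 CPM (ratio 0.614, 0.580 to 0.649). Among polymerase and primase genes 6 of 7 were at least 1.5-fold lower, with a median of -0.75. POLD3, an accessory subunit of polymerase delta, was the lowest at 14.1 against 29.7 CPM. PRIM2, the large subunit of primase, was the least low at 14.8 against 20.8 CPM (0.713, 0.663 to 0.766). POLA1, POLA2, PRIM1, POLE2 and POLD1 lay between, with log2 ratios from -1.01 to -0.69.

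The clamp and its loaders were the least low role, with 2 of 6 genes at least 1.5-fold lower and a median of -0.55. PCNA, the clamp, stood at 74.1 CPM in induced and 132 CPM in control cells (ratio 0.561, 0.544 to 0.579). RFC4, a loader subunit, had the second highest log2 ratio of all 45 genes, with 68.1 against 91.5 CPM (0.744, 0.719 to 0.770), and RFC2 and RFC3 were also short of 1.5-fold, with log2 ratios of -0.50 and -0.54, while RFC5 was past it at -0.72. DSCC1, part of an alternative loader, stood just short of the threshold at -0.57, and GINS4 just past it at -0.60. The clamp and loaders made up 17.0% of all member counts of induced cells and 14.4% of those of control cells. Of the genes for single-stranded DNA and ligation, FEN1 (a flap nuclease), LIG1 (a DNA ligase) and RPA3 passed 1.5-fold and RPA2 did not. LIG1 stood at 15.2 against 29.5 CPM. RPA3, a small subunit of the single-strand binding protein and the member with the most counts, stood at 205 against 335 CPM (0.611, 0.600 to 0.623). Its exons overlap UMAD1 on the opposite strand.

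All 4 genes of nucleotide supply were at least 1.5-fold lower. RRM2, the regulated subunit of ribonucleotide reductase, stood at 85.7 CPM in induced and 162 CPM in control cells (ratio 0.529, 0.515 to 0.545), and RRM1, the large subunit, had a ratio of 0.547 (0.526 to 0.569). TK1, thymidine kinase, was the least low of the group at 32.4 against 58.4 CPM. TYMS, thymidylate synthase, had the second lowest log2 ratio of all members, -1.15, but from 223 against 703 counts, and its level is uncertain because its exons overlap ENOSF1 on the opposite strand. In GENCODE 29, 21 of 45 members overlap another gene in exons on either strand, and whether the authors' counting used strand is not stated here by any label. Use of strand would not settle the overlaps on the same strand, which HELLS, RRM2, FEN1, PRIM1, POLA2, POLD1, POLD3 and CHAF1B have. MCM7, GINS2 and RFC4 are among the members that overlap a protein-coding gene on the opposite strand. All 4 chromatin assembly genes passed 1.5-fold too. UHRF1, which recruits DNA methylation to new strands, stood at 22.2 against 47.7 CPM, CHAF1A, of the histone chaperone CAF-1, at 31.0 against 61.4 CPM, and its partner CHAF1B was the least low of the group at 8.06 against 14.1 CPM. The chromatin assembly genes made up 7.35% of member counts in the induced against 9.23% in the control library. In the group of fork protection and repair, 4 of 4 passed. EXO1, an exonuclease, stood at 10.8 against 24.8 CPM, and FAM111B, a protease-like protein, at 8.06 against 15.1 CPM. CLSPN, a mediator of the replication checkpoint, stood at 32.4 against 67.8 CPM and BLM, a helicase, at 15.6 against 31.0 CPM.

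Cell by cell, the induced library was not shifted evenly. For this, cells were reduced at random to 53000 counts each, which left 562 induced and 766 control cells, and left out 104 and 190 shallower ones. The median cell held 56 counts of the 45 genes among induced and 150 among control cells, with 5th to 95th percentiles of 16 to 245 and 37 to 295. The induced cells reached as high as control cells but a smaller share of them did so. Of induced cells, 18.3% (Clopper-Pearson interval 15.2 to 21.8) lay above the control median and 2.31% (1.24 to 3.92) above the control 95th percentile, while 61.9% (57.8 to 66.0) lay above the control 5th percentile. The median number of the 45 genes with at least 1 count was 23 in induced and 35 in control cells.

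**Figure D2:**
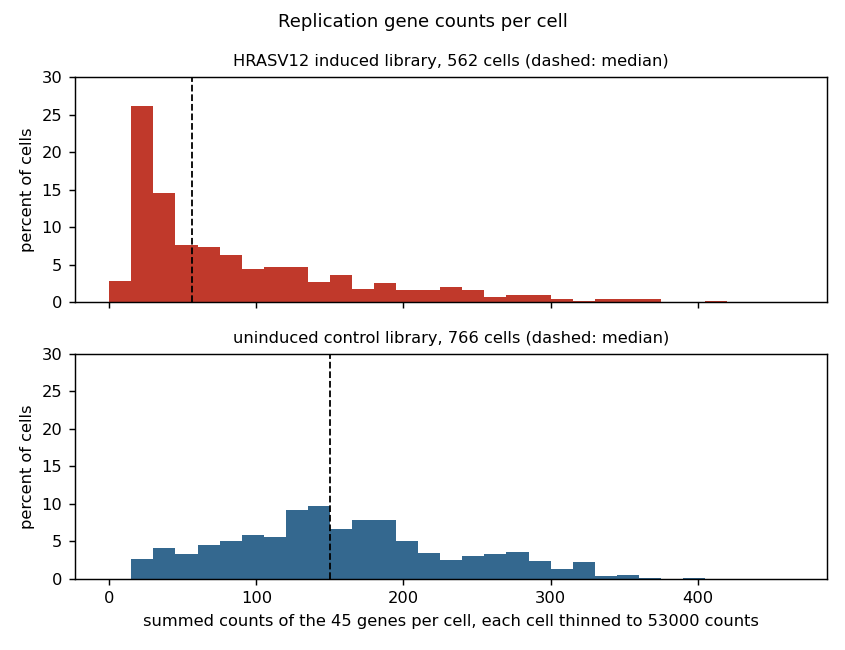
Percent of cells by summed counts of the 45 genes, each cell thinned to 53000 counts, for 562 induced cells (top) and 766 control cells (bottom). The dashed lines are the medians, 56 and 150 counts; most induced cells crowd at low counts with a tail to the right, and control cells spread around their median.

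To separate fewer cycling cells from a lower level per cycling cell, cells were placed in classes by genes that are no members: 19 other S phase genes and 54 genes of G2 and M phase, scored at equal depth. The S class held 46 of 562 induced cells, 8.19% (6.05 to 10.8), and 158 of 766 control cells, 20.6% (17.8 to 23.7). The G2 or M class held 34.3% (30.4 to 38.4) of induced and 62.9% (59.4 to 66.4) of control cells, and the G1 class, cells low in both scores, 57.5% (53.3 to 61.6) against 16.4% (13.9 to 19.3). With low cells left out and the rest scored anew, the S class held 16.2% of induced and 30.1% of control cells. The G2 or M class then held 27.0% and 54.3%. As first scored, low cells made up 19.6% of the induced and 5.06% of the control S class. In the G2 or M class they made up 44.6% and 10.6%. The new scoring moved cells between classes as well, so these shifts are not those of leaving low cells out alone. A score cut makes ranges and not cell types: 64 induced and 80 control cells lay within 0.05 of the cut between G1 and the rest. With another random seed for the scoring of all cells, the S class held 9.79% of induced and 26.1% of control cells. The G2 or M class then held 26.2% and 51.6%. The intervals above leave out such moves. Median counts of the G2 and M genes per cell in the S, G2 or M and G1 classes were 238, 412 and 109 in induced and 266, 451 and 135 in control cells. MKI67, a marker of dividing cells, stood at 80.8, 227 and 9.93 CPM in these classes of the induced library and at 100, 264 and 13.6 CPM in those of the control library. No phase was measured apart from RNA, and free RNA can also reach these scores.

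Within the S class the 45 genes were close to level. They summed to 4057 CPM in induced and 4315 CPM in control cells, a ratio of 0.940 (0.919 to 0.961), and the median log2 ratio of the genes was -0.07, against 0.01 over all 10797 genes. With another random seed for the scoring this median was 0.0075, so its sign is not settled. Of the 45 genes, 1 was at least 1.5-fold lower, where 4.37% of all genes were, and 0 were at least 1.5-fold higher, where 6.61% were. That 1 gene was ORC1, the largest subunit of the origin recognition complex, at 6.97 against 12.8 CPM, from 17 and 107 counts, and at 30000 or 80000 counts per cell, with no thinning or without low cells it was not past 1.5-fold. The counting interval of the ratio held 1 for 38 genes, lay below 1 for 6 and above 1 for 1, namely FAM111B (45.5 against 35.1 CPM, interval 1.03 to 1.62). PCNA stood at 228 against 241 CPM, RRM2 at 212 against 208 CPM and GINS2 at 228 against 234 CPM, with 1 inside each interval. The 6 genes with an interval below 1 were ORC1, POLD3, HELLS, MCM3, MCM7 and RPA3. MCM3 stood at 301 against 334 CPM (interval of the ratio 0.83 to 0.98), MCM7 at 256 against 303 CPM (0.77 to 0.92) and RPA3 at 278 against 353 CPM (0.72 to 0.86). The share of all genes with such intervals was not counted, so these numbers are not set against a background. Over cells the spread was wide, at a median of 197 member counts in induced S class cells (5th to 95th percentile 118 to 361) and 236 in control ones (130 to 325). The induced values rest on 46 cells. The 19 S phase genes that placed cells in this class summed to 644 CPM in induced and 1141 CPM in control cells over all cells. In the S class they summed to 1747 against 1827 CPM. A fall within cells shared by these genes and the 45 would move cells out of the class and need not show within it. This was not tested.

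Over all cells of the G2 or M and G1 classes, the summed levels of the 45 genes were lower in the induced library. With low cells left out of the classes as first scored, the sums in the G2 or M class were close, at 3010 CPM in induced and 3072 CPM in control cells. In the G1 class they were then 703 against 1086 CPM. In the G2 or M class the genes summed to 2589 CPM in induced and 3039 CPM in control cells (ratio 0.852, 0.840 to 0.864), with a median log2 ratio of -0.24 (-0.081 without low cells) and 3 of 45 genes at least 1.5-fold lower, where 2.27% of all genes were, and 0 at least 1.5-fold higher, where 5.78% were. The 3 were MCM2, TYMS and HELLS, of which HELLS stood at 97.8 against 152 CPM. In the G1 class they summed to 701 against 1096 CPM (0.639, 0.621 to 0.658), with a median of -0.56 and 22 of 45 genes at least 1.5-fold lower, where 6.72% of all genes were, and 0 at least 1.5-fold higher, where 11.8% were. MCM5, a ring subunit, had the lowest log2 ratio of CPM plus 1 in this class, -1.31, at 11.3 against 29.5 CPM, while the plain ratio was lower for TYMS (0.332) and MCM2 (0.351), both at under 3 CPM there. RFC2 (30.7 against 28.3 CPM) and DSCC1 (5.43 against 4.34 CPM) were not lower in this class, nor were ORC1 and POLA2. The G2 or M class was not free of S phase RNA. Its median cell held 47 counts of the 19 other S phase genes in induced and 58.5 in control cells. The G1 class of the control library was itself closer to the cut, with 40 of 126 cells within 0.05 of it, against 31 of 323 induced cells, and its median cell held 21 counts of the 19 other S phase genes against 15 in induced G1 cells. The part of this in the G1 difference was not tested in the classes, and bins of similar S phase counts are given further on.

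**Figure D3:**
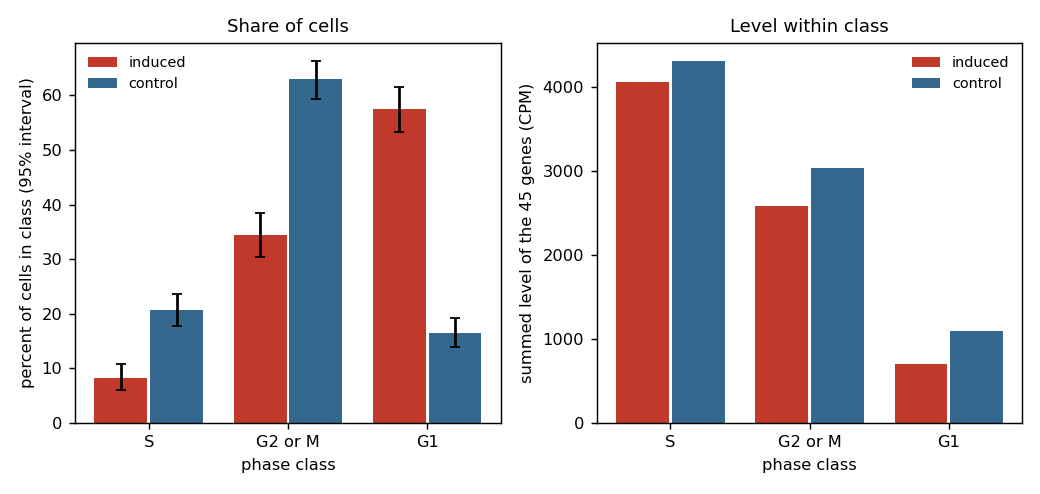
Left, percent of cells in the S, G2 or M and G1 classes with Clopper-Pearson intervals; right, summed CPM of the 45 genes within each class, from 562 induced (red) and 766 control (blue) cells at equal depth. Shares differ most, with 57.5% of induced against 16.4% of control cells in G1, and levels least in the S class, 4057 against 4315 CPM. The intervals leave out moves with the scoring.

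Each member was higher in S than in G1 class cells of both libraries. The ratio of S over G1 had a median of 6.20 over the 45 genes in induced and 4.47 in control cells, ran from 2.27 to 22.9 in induced and from 1.81 to 9.48 in control cells, and was smaller in the induced library for 7 of 45 genes. RPA3 had the smallest contrast in both. FAM111B had the largest in induced cells and ORC1 in control cells, each at under 2 CPM in that library's G1 class. The G1 classes of the libraries were not alike, since that of the control library lay closer to the cut and held more S phase counts. The part of this in the contrasts was not tested.

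The log2 ratio of the summed level at equal depth, -0.88, was then split into a part from the shares of cells per class and a part from levels within classes. The class shares gave -0.61 and the levels -0.26, which are ratios of 0.654 and 0.833, so that class shares made up 69.9% of the log2 difference. By gene, the class share part was larger in size than the level part for 42 of 45 genes, the exceptions being MCM2, TYMS and RPA3. The level part was below 0 for 42 of 45 genes with a median of -0.25, and 2 genes, MCM2 (-0.67) and TYMS (-0.68), were past 1.5-fold in it, both of them low in counts. HELLS followed at -0.56, with a class share part of -0.66. By role, class shares made up most of the difference for the clamp and loaders (86.2%) and least for single-stranded DNA and ligation (58.1%) and chromatin assembly (61.5%).

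This split moved with how cells were grouped. Without low cells, and with the rest scored anew, the class share part was -0.61 and the level part -0.15. Low cells made up 38.6% of induced and 9.79% of control cells at equal depth. In the induced G2 or M class the 86 low cells had 2065 CPM of the 45 genes against 3010 CPM in the other 107. In the control G2 or M class the 51 low cells had 2765 CPM against 3072 CPM in the others. With cells parted only by MKI67 at 3 counts, the class share part was -0.34 and the level part -0.53. With quartile bins of the G2 and M genes they were -0.48 and -0.40, and with quartile bins of the 19 S phase genes -0.70 and -0.18. In narrower bins of 10 counts of the 19 S phase genes, chosen after the values were seen, they were -0.81 and -0.071. The 19 genes belong to the same S phase programme as the 45. A fall shared by both within a cell would count as class share in such bins, and could do so in the S, G2 or M and G1 classes. One confined to the 45 would not.

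Those bins show where levels differed. Among cells with 11 to 20 counts of the 19 genes the 45 genes stood at 635 CPM in 178 induced cells and 820 CPM in 50 control cells, a ratio of 0.775 (0.737 to 0.814). The ratio was 0.868 (0.832 to 0.906) at 21 to 30 counts, 0.913 (0.880 to 0.946) at 41 to 50 and 1.02 (1.00 to 1.04) above 80, where 53 induced cells had 4912 CPM and 190 control cells 4809 CPM. Cells with up to 20 of these counts made up 257 of 562 induced cells and 64 of 766 control cells. At the lowest counts, up to 10, only 14 control cells were found, and the ratio was 0.845 (0.755 to 0.947).

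**Figure D4:**
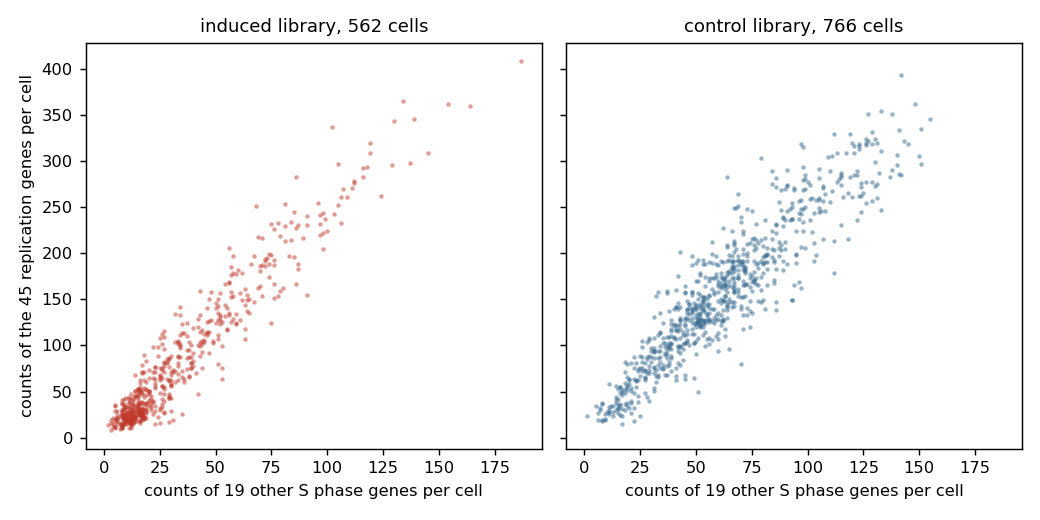
Counts of the 45 genes per cell (vertical) against counts of 19 other S phase genes (horizontal), each cell thinned to 53000 counts, for 562 induced cells (left) and 766 control cells (right). Both libraries follow a similar band, and the induced cells crowd at its low end, with 257 of 562 at 20 or fewer S phase counts.

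HRAS itself had a level of 161 CPM in induced and 109 CPM in control cells. Whether transcripts of the construct are counted under this gene was not tested. Induced cells with 0 to 3 HRAS counts at equal depth had 1804 CPM of the 45 genes over 73 cells, those with 4 to 9 had 1737 CPM over 307 cells and those with 10 or more had 1361 CPM over 182 cells. Control cells in the same bins had 2726, 3063 and 3087 CPM over 188, 502 and 76 cells. Median member counts per induced cell, 44, 64 and 46.5 in that order, did not follow the pooled levels, and the 5th to 95th percentile was 16 to 198 in the highest bin.

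Other replication genes outside the 45 showed a smaller difference. In a list of 38, 19 were at least 1.5-fold lower, where 7.45% of all genes were, and 1 at least 1.5-fold higher, where 9.68% were. The median of the list was -0.59. TICRR, which helps to load CDC45, was the lowest at 5.96 CPM in induced and 15.2 CPM in control cells, followed by ESCO2, a cohesin acetyltransferase, at 23.1 against 54.4 CPM. ORC5 and POLE4, subunits of the origin recognition complex and of polymerase epsilon, were the highest of the 36 with a mean of at least 5 CPM, at 14.5 against 12.6 CPM and 69.1 against 62.9 CPM. POLD4, under that mean, was the gene at least 1.5-fold higher, with 477 against 247 counts. In the S class 0 of the 38 were past 1.5-fold in either direction, where 4.37% of all genes were lower and 6.61% higher. The median of the 38 was -0.06. Of 17 regulators of the E2F and RB system, 6 were at least 1.5-fold lower and 0 at least 1.5-fold higher over all cells (median -0.46), against 7.45% and 9.68% of all genes. E2F7, a repressor of the E2F family, stood at 3.07 against 8.63 CPM and RBL1, a relative of RB, had 482 against 1426 counts. CDKN1A, the CDK inhibitor p21, was the highest at 29.5 against 21.0 CPM, a log2 ratio of 0.47. E2F6 was next at 31.2 against 31.0 CPM. E2F1, an activator, stood at 51.9 against 76.3 CPM over all cells. Within the S class 4 of the 17 were at least 1.5-fold lower, where 4.37% of all genes were, and 1 at least 1.5-fold higher, where 6.61% were, with a median of -0.11. The 4 were E2F7 (log2 ratio -1.47), E2F5 (4.51 CPM in induced against 10.03 CPM in control cells), LIN52 (log2 ratio -0.75) and RBL1 (log2 ratio -0.63), each at under 11 CPM in induced S class cells, and the 1 was CDKN1A (log2 ratio 0.89). These calls rest on 46 induced cells, and they were not repeated under other settings. E2F1 had a log2 ratio of 0.27 in the S class.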

How the data were processed

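Per the labels, 1 induced and 1 control culture went through the 10x Genomics 3′ droplet protocol. Tools named in the submitters' processing notes are kallisto and bustools. No version, build or annotation is named in these sources. The authors deposited counts, whole molecules of 36027 genes in each of 1622 cells. The authors' annotation of cells gives the library and the percent of mitochondrial counts of each cell, per the file headers, and marks all 1622 cells as singlets. Cell totals differed from the annotated totals by at most 192 counts.

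The 45 members and all lists were chosen with earlier results of these data known. Every member is accounted for, and values are printed for the highest and lowest log2 ratio overall and per role, the 5 members with the highest mean CPM, those whose promoter is shown, and the 2 highest and 2 lowest of each other list of replication genes and regulators. All other values of single genes were chosen after they were seen. Counts were summed per library and scaled to CPM. Log2 ratios are induced over control with a pseudocount of 1 CPM, which understates differences of low genes, and 1.5-fold is a rule of size with no test. Ratio intervals are exact conditional, shares Clopper-Pearson. No test was run, since cells are not replicates. A marker of the cell line is not reported here. For values per cell, cells were thinned to a common depth, a multiple of 1000 counts, as large as possible with 80% of either library kept. Phases were scored with scanpy 1.11.5, with no member in either list or in the pool of genes it compares with. edgeR 4.0.16 and DESeq2 1.42.0 gave scaling factors only. The calculations were tested on simulated data. The count IDs matched GENCODE 29 by ID and version for 54.6%, so overlaps were looked up by ID without version, and no coordinates are given for the counted genes.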

Additional observations from a re-analysis of the deposited data

How the results depend on the processing

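Over all cells, the count of members at least 1.5-fold lower (38 of 45) stayed between 31 and 42 under every scaling, pseudocount and choice of cells run. It was 35 with TMM scaling, 31 with DESeq2 size factors and 42 with totals free of ribosomal protein and mitochondrial genes, where 4.83%, 3.95% and 11.8% of all genes were lower. Of the 43 members with a mean of at least 5 CPM 36 passed, and of the 27 with at least 25 CPM 22 passed. No alternative made a member at least 1.5-fold higher. The median log2 ratio (-0.86) was -0.75 with TMM scaling, -0.70 with DESeq2 size factors and -0.71 without low cells. The log2 ratio of the summed level (-0.85) was -0.74 with TMM, -0.69 with DESeq2 size factors, -0.94 with totals free of ribosomal protein and mitochondrial genes, -0.74 without low cells, -0.86 without the 5% of cells with the most counts and -0.87 without the 20% with the fewest. TMM, DESeq2 and the totals free of ribosomal protein and mitochondrial genes put the median of all genes at 0.05, 0.10 and -0.14.

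Class shares moved with the depth and the scoring. In the setting without low cells, the remaining cells were scored anew. The S class held 11.9% of induced and 31.0% of control cells with no thinning, 11.3% and 27.7% at 30000 counts, 16.2% and 30.1% without low cells, and 9.79% and 26.1% with another seed for the genes that scores are compared with. The G2 or M class held 24.9% and 44.5%, 28.9% and 50.5%, 27.0% and 54.3%, and 26.2% and 51.6% under the same settings. The median within the S class turned to 0.0075 with another seed, and within the G2 or M class it was -0.081 without low cells. ORC1 passed 1.5-fold in the S class at 53000 counts, while 0 genes passed with no thinning, 0 at 30000 counts, 0 at 80000 counts and 0 without low cells. The class share and level parts (-0.61 and -0.26) were -0.64 and -0.21 with no thinning, -0.60 and -0.23 at 30000 counts, -0.63 and -0.25 with another seed, -0.70 and -0.18 in quartile bins of the S phase genes, -0.48 and -0.40 in quartile bins of the G2 and M genes, -0.34 and -0.53 by MKI67, and -0.81 and -0.071 in bins of 10 counts. The level part was -0.15 without low cells. The median cell held 31 induced and 83 control member counts at 30000 counts, by construction of the depth. The causes of the other moves were not tested. No paired analysis was possible because each group has 1 library.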
